A study of Homo sapiens with 6 samples.

Results

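The subject here is a group of 9 transcription factor genes that MLL fusion proteins keep switched on in leukaemia: HOXA3, HOXA5, HOXA6, HOXA7, HOXA9 and HOXA10 of the HOXA cluster, the homeobox partners MEIS1 and PBX3, and the MADS-box factor MEF2C. The genes were chosen by symbol, not by their values, and all 9 were found among the 39771 rows of the deposited table. The cells were MOLM-13, a human acute myeloid leukaemia line that carries the MLL-AF9 translocation. Both groups were transduced with a lentiviral short hairpin RNA and selected with puromycin. In the shNT group (2 libraries) the hairpin was a non-targeting control, and in the shLAMP5 group (4 libraries) it was directed against LAMP5, a LAMP family membrane protein of endosomes and lysosomes. The labels do not say which LAMP5 hairpin a library received, when its cells were harvested or whether cultures were separate. All libraries are of a single cell line, so a p-value here covers library-to-library spread alone, possibly technical in origin. In such bulk RNA, fewer cells that express a gene and less RNA per cell cannot be told apart.

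HOXA genes encode homeodomain proteins that pattern the embryo along its axis and that are also active in blood stem and progenitor cells, where several of them decline as cells mature. MLL fusions bind at the HOXA cluster and at MEIS1 and, together with menin, elongation factors and the histone methyltransferase DOT1L, keep these genes transcribed. HOXA9 binds DNA together with PBX and MEIS proteins, and HOXA9 with MEIS1 is a classic transforming pair in myeloid cells. MEF2C is a further target of MLL fusions with a role in the self-renewal of leukaemic cells. The comparison asks whether this programme differs when LAMP5 is knocked down.

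Values are TPM, transcript abundance per unit of transcript length scaled to a fixed total in each library, so levels of different genes may be compared. The rows summed to between 897026 and 912565 TPM per library, and read depth is unknown. LAMP5 itself lay at 170 and 282 TPM in the controls and between 65.6 and 86.7 TPM after knockdown, in the direction of the labels. All 8 myeloid markers examined (such as SPI1, MPO and CD33) were at 1 TPM or more in every library. Erythroid and megakaryocyte markers were below 1 TPM in every library, and the summed T cell, B cell and fibroblast markers did not pass 8.61, 1.49 and 6.36 TPM in any library. By its values shLAMP5 2 stands apart from the other shLAMP5 libraries, and it held the lowest value of 44.1% of the genes tested. Its median scaling factor was 0.8732, against 1.046 to 1.057 in the other shLAMP5 libraries and 0.9978 and 1.021 in shNT.

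No member of the group passed the test between shLAMP5 and shNT. With limma on log2(TPM + 1), adjusted over the 13072 genes tested, 0 of the 9 genes passed an adjusted p of 0.05, and the background was 0% of all genes. At an unadjusted p under 0.05 there were also 0 of 9, where 8.97% of all genes tested lay. LAMP5 itself, at 33.3% of its shNT mean, did not pass either (log2 fold change -1.535, limma adjusted p 0.252). No gene had a smaller adjusted p, so failing this test does not show that a gene was unchanged. All 9 genes were above 1 TPM in each of the 6 libraries, so the filter on low values removed none of them. The median log2 fold change of the 9 genes was -0.15, with 4 positive and 5 negative values, and the median of all genes tested was -0.0060. The shLAMP5 libraries all lay above both shNT libraries for 1 member, HOXA9, against 8.25% of all genes tested. They all lay below both for 1 member, HOXA6, against 13.5% of all genes tested. The members thus gave both signs, and their counts are close to those of the other genes.

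**Figure D1:**
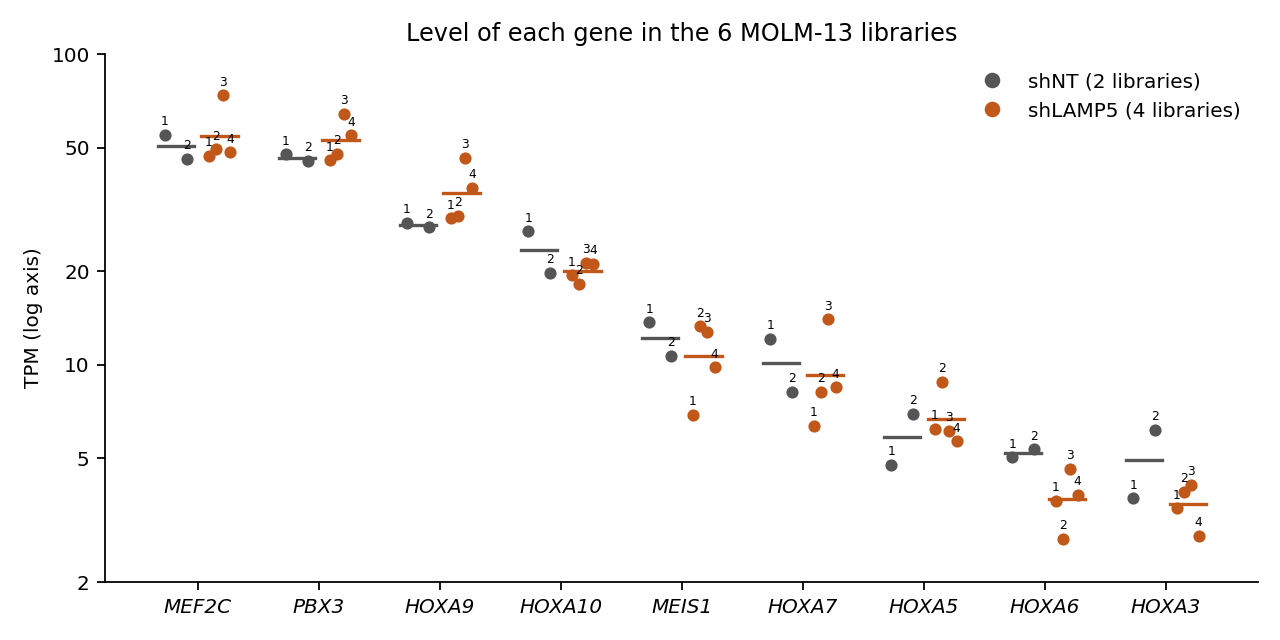
TPM (log axis) of the 9 genes in each library, ordered by their mean, with the replicate number above each point and a bar at the mean of each group. The shNT and shLAMP5 points overlap for every gene but HOXA9, where all shLAMP5 points lie higher, and HOXA6, where all lie lower.

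HOXA9, a factor on which MLL-fusion leukaemias can depend, measured 28.6 and 27.7 TPM in the shNT libraries. In shLAMP5 1 to 4 it measured 29.6, 30.1, 46.4 and 37.2 TPM. The shLAMP5 libraries 1 and 2 lay just above the controls, while 3 and 4 were clearly higher. On average this was 28.1 ± 0.656 TPM (SD, n = 2) in controls against 35.8 ± 7.88 TPM (SD, n = 4), which gave a log2 fold change of 0.31 (SE 0.23, 95% interval -0.22 to 0.85, limma adjusted p 0.708). Without shLAMP5 3 the log2 fold change was 0.18. The separation of the groups was lost once libraries were scaled by their median ratio, where shLAMP5 1 (28.0) lay between the shNT libraries (27.1 and 28.7). On that scale shLAMP5 2 (34.5) lay near shLAMP5 4 (35.4) rather than near the controls.

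HOXA10, the next gene in the cluster, whose product restrains maturation of myeloid cells when it is overexpressed, measured 26.9 and 19.8 TPM in shNT. In shLAMP5 1 to 4 it measured 19.4, 18.2, 21.3 and 21.1 TPM. The control libraries were farther apart than the knockdown libraries, and shNT 2 lay among the latter. HOXA10 had a log2 fold change of -0.20 (SE 0.20, 95% interval -0.66 to 0.26, limma adjusted p 0.799), which became 0.013 without shNT 1 and -0.41 without shNT 2.

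HOXA7 measured 12.1 and 8.18 TPM in shNT and 6.37, 8.18, 14.0 and 8.46 TPM in shLAMP5 1 to 4. Both extremes were in the shLAMP5 group. Its log2 fold change was -0.15 (SE 0.31, 95% interval -0.86 to 0.56, limma adjusted p 0.914), the widest interval of the 9, and it was 0.11 without shNT 1.

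HOXA6 measured 5.04 and 5.35 TPM in shNT and 3.65, 2.76, 4.62 and 3.81 TPM in shLAMP5 1 to 4. Every knockdown library was below both controls, also after median scaling, where the highest shLAMP5 value was 4.42 and the lowest shNT value 5.05. Control libraries averaged 5.2 ± 0.221 TPM (SD, n = 2), knockdown libraries 3.71 ± 0.763 TPM (SD, n = 4). The log2 fold change of -0.41 (SE 0.22, 95% interval -0.93 to 0.11, limma adjusted p 0.614) was the most negative of the group and did not pass the test.

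HOXA5, an anterior neighbour that is active in progenitors, measured 4.76 and 6.96 TPM in shNT and 6.21, 8.81, 6.14 and 5.67 TPM in shLAMP5 1 to 4. Its log2 fold change was 0.17 (SE 0.24, 95% interval -0.39 to 0.73, limma adjusted p 0.868), and it was -0.063 without shNT 1. HOXA3 measured 3.72 and 6.17 TPM in shNT and 3.45, 3.91, 4.12 and 2.81 TPM in shLAMP5 1 to 4. In HOXA3 the groups overlapped through shNT 1, and the highest value by a wide margin was shNT 2. Its log2 fold change was -0.36 (SE 0.25, 95% interval -0.93 to 0.21, limma adjusted p 0.69), against -0.056 without shNT 2 and -0.66 without shNT 1. In the RefSeq annotation HOXA3 spans its neighbours HOXA4, HOXA5 and HOXA6, and HOXA9 shares a read-through gene with HOXA10, so assignment of reads between these genes is uncertain.

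MEIS1, the TALE homeodomain partner that cooperates with HOXA9, measured 13.7 and 10.7 TPM in shNT. In shLAMP5 1 to 4 it measured 6.89, 13.3, 12.8 and 9.82 TPM. In unscaled TPM libraries 2 and 3 lay within the control range and libraries 1 and 4 below it. After median scaling library 2 (15.2) lay above both controls (13.7 and 10.5). Controls averaged 12.2 ± 2.15 TPM (SD, n = 2) against 10.7 ± 2.96 TPM (SD, n = 4), with a log2 fold change of -0.20 (SE 0.28, 95% interval -0.85 to 0.44, limma adjusted p 0.863). The value moved to -0.027 without shLAMP5 1, to -0.036 without shNT 1, to -0.31 without shLAMP5 2 and to -0.37 without shNT 2.

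PBX3, the PBX family member most tied to HOXA9 in leukaemia, measured 47.6 and 45.3 TPM in shNT and 45.5, 47.8, 64.2 and 54.8 TPM in shLAMP5 1 to 4. As with HOXA9 in unscaled TPM, libraries 3 and 4 were the high ones and libraries 1 and 2 were near the controls. This grouping changed after median scaling, where library 2 (54.7) lay above library 4 (52.1) and both controls (47.7 and 44.4). The log2 fold change of PBX3 was 0.18 (SE 0.20, 95% interval -0.30 to 0.65, limma adjusted p 0.828), and 0.082 without shLAMP5 3.

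MEF2C measured 55.0 and 46.0 TPM in shNT and 47.1, 49.4, 73.7 and 48.3 TPM in shLAMP5 1 to 4. In unscaled TPM only shLAMP5 3 lay above the control range. After median scaling shLAMP5 2 (56.5) also lay above both controls (55.1 and 45.0). MEF2C had a log2 fold change of 0.092 (SE 0.24, 95% interval -0.46 to 0.64, limma adjusted p 0.936). This value was negative without shLAMP5 3 (-0.058) and without shNT 2 (-0.035).

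**Figure D2:**
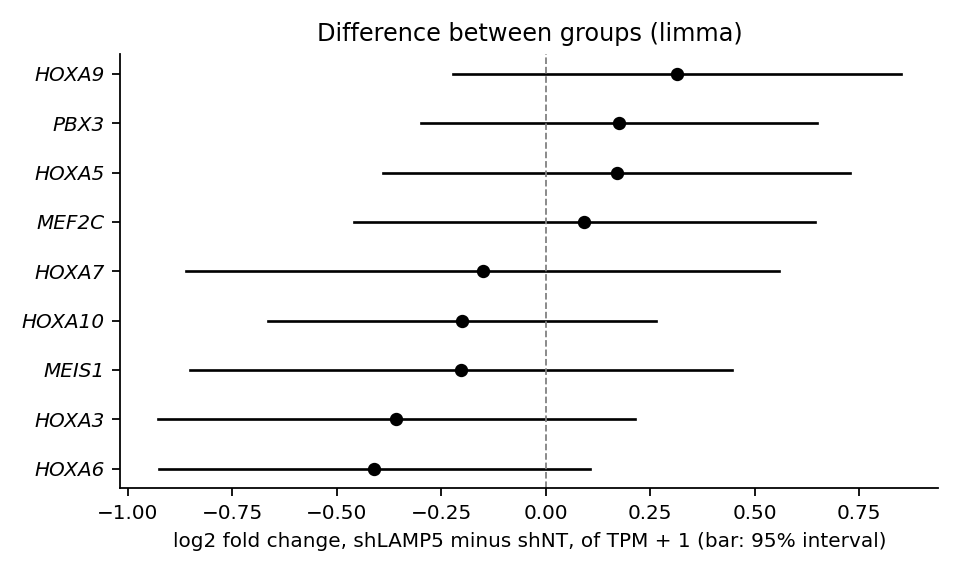
Log2 fold change (shLAMP5 minus shNT, of TPM + 1) of each gene with its 95% interval from limma, 2 shNT against 4 shLAMP5 libraries. Every interval spans 0, from HOXA6 at -0.41 to HOXA9 at 0.31.

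The 9 intervals lay between -0.93 and 0.85. On the log2(TPM + 1) scale the change of low genes such as HOXA3 and HOXA6 is understated. In ratios of the means, shLAMP5 held between 71.4% (HOXA6) and 127% (HOXA9) of the shNT mean. The library shLAMP5 3 held the highest value of 4 of the 9 genes (HOXA7, HOXA9, PBX3 and MEF2C), where it held the highest value of 25.4% of all genes tested.

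By level, MEF2C (mean of 6 libraries 53.2 TPM) and PBX3 (50.9) were the most abundant, followed by HOXA9 (33.3), HOXA10 (21.1), MEIS1 (11.2), HOXA7 (9.54), HOXA5 (6.42), HOXA6 (4.2) and HOXA3 (4.03). The ranges over libraries did not overlap between HOXA9 and HOXA10 or between HOXA10 and MEIS1. The ranges of all other neighbours in this order overlapped, which does not show that their levels were equal. Within single libraries MEF2C was above PBX3, MEIS1 above HOXA7, HOXA7 above HOXA5 and HOXA5 above HOXA6 in 5 of 6 each. HOXA6 was above HOXA3 in 4 of 6. The range of PBX3 overlapped that of HOXA9 across libraries, yet PBX3 was the higher in 6 of 6 libraries. Likewise HOXA5 was above HOXA3 in 6 of 6.

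Read along the chromosome, the HOXA cluster was highest at HOXA9. HOXA2 and HOXA4, outside the 9 genes, had group means at or below 0.937 TPM. HOXA3, HOXA5, HOXA6 and HOXA7 lay between 4.03 and 9.54 TPM on average, and beyond HOXA9 levels declined over HOXA10 and HOXA11 (9.4 and 9.46 TPM in shNT and shLAMP5) to HOXA13 (4.33 and 3.71 TPM). The 10 HOXA genes considered summed to 96.5 and 88.4 TPM in shNT and to 82.5, 87.9, 111 and 90.9 TPM in shLAMP5 1 to 4, so their total overlapped between groups. Within that sum the share of HOXA9 was 29.6% and 31.3% in shNT and 35.8%, 34.3%, 41.8% and 40.9% in shLAMP5 1 to 4, higher in every knockdown library. The share of HOXA6 was 5.22% and 6.06% in shNT and between 3.14% and 4.42% in shLAMP5, lower in every one. The shares of the other 8 genes overlapped. Shares of 1 sum are not independent, as a higher share of HOXA9 lowers the rest. In TPM, 21.8% of all genes tested did not overlap between the groups, and no such background was computed for shares. Of 27 HOXB, HOXC and HOXD genes in the table, 17 were listed at 0 in every library and the highest single value was 0.12 TPM (HOXB9).

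**Figure D3:**
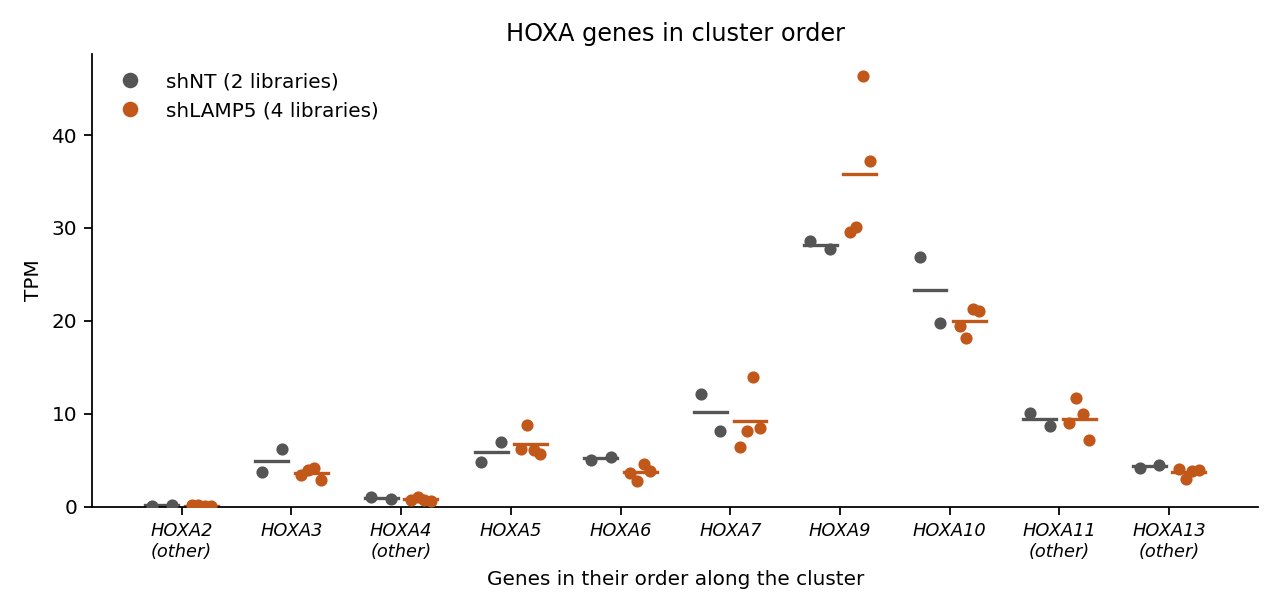
TPM of 10 HOXA genes in their order along the cluster, 1 point per library with a bar at each group mean, and "other" for genes outside the group of 9. Levels peak at HOXA9, with shNT at 27.7 and 28.6 TPM and shLAMP5 between 29.6 and 46.4 TPM.

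Genes were also compared in pairs within each library. The ratio of HOXA9 to MEIS1, taken as (TPM + 1) over (TPM + 1), was 2.01 and 2.46 in shNT and 3.88, 2.18, 3.44 and 3.53 in shLAMP5 1 to 4. Libraries 1, 3 and 4 were above both controls and shLAMP5 2 lay between them. The difference of the log2 ratio was 0.52, with an exact two-sided permutation p of 0.267, where 15 assignments of the libraries allow no p below 0.0667. Over all 36 pairs of the 9 genes, the ratio did not overlap between the groups for 11 (30.6%), where 24.2% of all pairs of tested genes did not. HOXA9 was in 6 of these 11 pairs and each time gained on its partner, namely HOXA3, HOXA6, HOXA7, HOXA10, PBX3 and MEF2C. Against the other tested genes HOXA9 gained in this way on 25.2%. The count over pairs was 18 of 36 without shNT 1 and 23 of 36 without shNT 2, where 47.3% and 40.2% of all pairs of tested genes did not overlap. Pairs that share a gene are not independent, and these ratios were looked at after the values were seen.

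The ratio of HOXA9 to HOXA10, neighbours on the chromosome, was 1.06 and 1.38 in shNT and 1.5, 1.62, 2.12 and 1.73 in shLAMP5 1 to 4. The mean log2 ratio differed by 0.51, and by 0.33 and 0.70 without shNT 1 and shNT 2. HOXA6 lost ground to HOXA9 (HOXA6 over HOXA9 0.204 and 0.222 in shNT and 0.119 to 0.152 in shLAMP5) and likewise to HOXA5, PBX3 and MEF2C. MEIS1 gave no separated ratio with any of the 8 others.

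**Figure D4:**
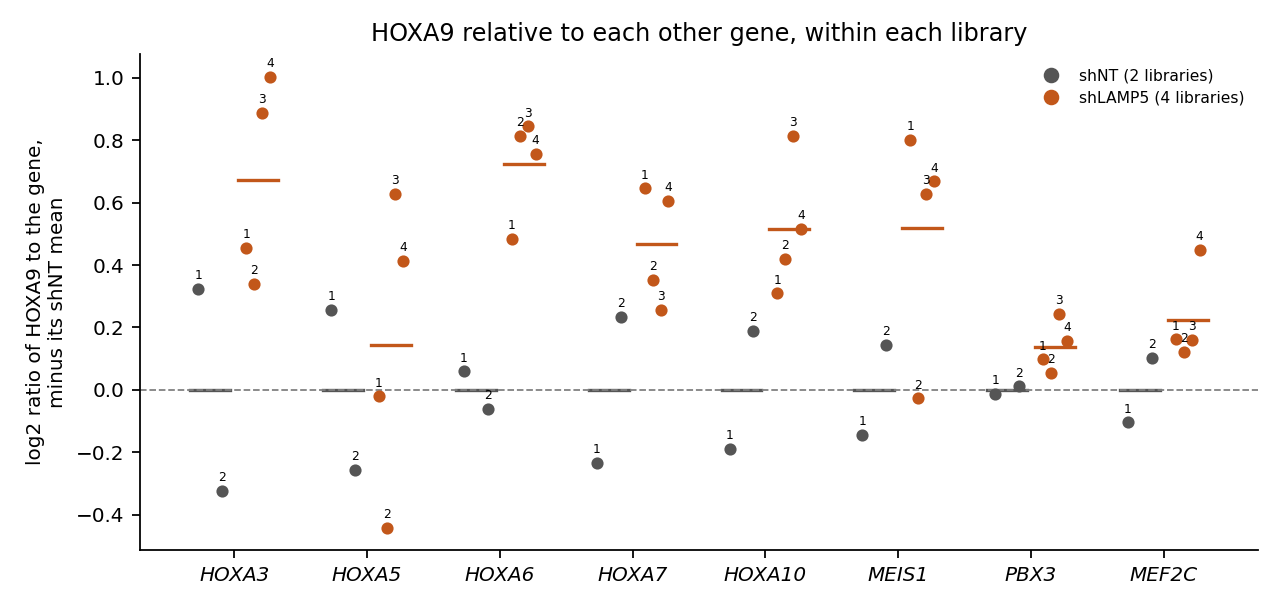
Log2 ratio of HOXA9 to each of the 8 other genes in each library, less the mean of that ratio in shNT, with the replicate number above each point and a bar at each group mean. All shLAMP5 points lie above both shNT points for 6 genes, and those of HOXA5 and MEIS1 overlap.

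The members were also compared by the shape of their profile over the 6 libraries, using the root mean square difference of log2(TPM + 1) after each gene was centred on its own mean. By this measure PBX3 was the member nearest to HOXA9 (0.0874), and only 20 of 7199 other genes with a mean of at least 10 TPM were nearer. MEF2C followed at 0.161, while HOXA10 (0.307) and MEIS1 (0.368) were about as far from HOXA9 as a typical gene (median 0.356). The genes outside the group that were most like HOXA9 were TNFRSF10B (0.0697), a death receptor for TRAIL, C6orf120 (0.073), UBALD1 (0.0768), SLU7 (0.0772), a splicing factor, and CLN3 (0.0778), a lysosomal membrane protein. Each of these 5 had its highest value in shLAMP5 3, as did HOXA9, which the choice by likeness favours. MEIS1 was nearest to HOXA7 (0.231) among the members. Outside the group it was most like RFTN1 (0.102), SSBP4 (0.112), FBXL6 (0.118), FHOD1 (0.124) and CAST (0.128). All had their lowest value in shLAMP5 1, as did MEIS1, which the choice favours in the same way. These distances describe 6 libraries that share their scaling, and carry no test.

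The promoters of HOXA9, of PBX3, its nearest member by profile, and of HOXA10, the chromosomal neighbour of HOXA9, are shown for reference. They were taken from RefSeq on GRCh38.p14, from 250 bases before to 50 after a start site. The expression values came from hg19, per the submitters' processing notes. Capitals mark CG dinucleotides, the letters that the CXXC domain kept in MLL fusions binds when unmethylated.
HOXA9, chr7:27165488-27165787, minus strand: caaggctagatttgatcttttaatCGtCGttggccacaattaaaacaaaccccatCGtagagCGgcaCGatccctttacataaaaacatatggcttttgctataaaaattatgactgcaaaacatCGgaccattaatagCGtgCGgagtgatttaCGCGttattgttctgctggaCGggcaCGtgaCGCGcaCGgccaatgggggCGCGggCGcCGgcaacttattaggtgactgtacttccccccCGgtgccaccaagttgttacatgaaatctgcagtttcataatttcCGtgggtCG
HOXA10, upstream start, chr7:27179812-27180111, minus strand: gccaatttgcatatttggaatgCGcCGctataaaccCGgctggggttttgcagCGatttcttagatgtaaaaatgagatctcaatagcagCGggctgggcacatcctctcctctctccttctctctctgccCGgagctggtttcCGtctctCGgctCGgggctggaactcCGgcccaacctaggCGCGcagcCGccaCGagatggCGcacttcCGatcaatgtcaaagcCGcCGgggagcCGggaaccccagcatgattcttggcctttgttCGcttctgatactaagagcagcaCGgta
PBX3, chr9:125747933-125748232, plus strand: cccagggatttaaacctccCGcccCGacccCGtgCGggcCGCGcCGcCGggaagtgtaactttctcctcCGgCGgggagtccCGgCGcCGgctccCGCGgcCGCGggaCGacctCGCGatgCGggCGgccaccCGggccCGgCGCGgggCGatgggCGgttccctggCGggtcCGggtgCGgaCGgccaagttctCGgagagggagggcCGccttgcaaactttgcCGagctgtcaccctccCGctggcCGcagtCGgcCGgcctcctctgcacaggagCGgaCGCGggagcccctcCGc

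The HOXA9 window holds 22 CG, the HOXA10 window 21 and the PBX3 window 43. The median of 35116 such windows was 14, and 37.7%, 39.5% and 4.98% of them held at least as many. MEIS1 had 18 CG, HOXA6 29 and HOXA7 31, and the 7 start sites of MEF2C ranged from 1 to 32. Entries were found for 8 of the 9 genes, without HOXA5. The letters of the composite HOX-PBX motif TGATTTAC, searched on both strands, occur in the HOXA9 window, 102 to 95 bases before the start on the gene's own strand, and in 0.626% of all windows. The variant TGATTTAT, in 0.846% of windows, occurs in no member's window. The MEIS motif TGACAG, in 15.8% of windows, occurs in the PBX3 window on the opposite strand, 20 to 15 bases before the start, and in 3 of the 7 MEF2C windows. None of these 3 motifs occurs in the windows of MEIS1 or HOXA10.

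Other transcripts of the members' loci were few. Of 12 listed transcripts found, 6 were tested and 0 passed, with 2 of the 6 higher in every shLAMP5 library than in both controls (8.25% of all genes tested). HOTAIRM1, a noncoding RNA of the HOXA cluster that is linked to myeloid maturation, measured 2.68 and 2.45 TPM in shNT and 4.07, 3.42, 5.5 and 5.65 TPM in shLAMP5 1 to 4. Its log2 fold change was 0.65 (SE 0.24, limma unadjusted p 0.0276 and adjusted p 0.524). HOXA11-AS measured 6.63 and 6.76 TPM in shNT and 7.36 to 10.9 TPM in shLAMP5, or 0.32 as log2 fold change (limma adjusted p 0.677). HOXA10-AS, which lies between HOXA9 and HOXA10, measured 11.6 and 5.73 TPM in shNT and 7.37 to 17.4 TPM in shLAMP5, and MEF2C-AS1 measured 5.76 and 4.75 TPM and 3.97 to 4.83 TPM. HOTTIP, from the HOXA13 end, did not reach 1 TPM in any library. Beyond the cluster, SKAP2 and HIBADH had log2 fold changes of -0.0080 and -0.11. No strand setting is stated, so reads of antisense partners and of the coding genes beside them cannot be told apart.

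Among the TALE homeobox relatives of MEIS1 and PBX3, 5 of 8 were tested and 0 passed, with 2 positive and 3 negative values. MEIS2, a close paralog of MEIS1, measured 16.1 and 12.0 TPM in shNT and 10.5, 6.69, 7.85 and 8.82 TPM in shLAMP5 1 to 4. Every knockdown library was below both controls, with a log2 fold change of -0.67 (SE 0.23, limma unadjusted p 0.0204 and adjusted p 0.52). MEIS2 was the 1 gene of the 5 below both controls and the 1 at an unadjusted p under 0.05. Of all genes tested, 13.5% lay below both controls and 8.97% had such a p. Over the 6 libraries MEIS2 averaged 10.3 TPM and MEIS1 11.2 TPM. PKNOX1, which pairs with PBX, had -0.35, TGIF2 -0.19, PBX2 0.17 and TGIF1, a repressor of the family, 0.48. Other PBX genes were far below PBX3: PBX2 did not pass 4.02 TPM in any library, and PBX4 averaged 0.374 TPM. The list median of -0.19 was 0.0094 without shLAMP5 2.

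Of the other HOX genes 2 were tested and 0 passed. HOXA11 had a log2 fold change of -0.0072. HOXA13 had -0.18, with all shLAMP5 libraries (3.01 to 4.06 TPM) below both controls (4.13 and 4.53 TPM), as for 13.5% of all genes tested.

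Around MEF2C, all 14 family members and regulators on the list were tested and 0 passed, with 11 positive values and a median of 0.16, which was 0.095 without shNT 1. All shLAMP5 libraries lay above both controls for 3 of the 14 and below both for 0, against 8.25% and 13.5% of all genes tested. MEF2D was the most abundant MEF2 gene with 141 ± 20.3 TPM (SD, n = 2) in controls, 114 ± 20.6 TPM (SD, n = 4) after knockdown and a log2 fold change of -0.31. HDAC9, a class IIa deacetylase that binds MEF2 factors, had 0.32, with shLAMP5 libraries at 21.1 to 30.1 TPM and controls at 18.1 and 21.1 TPM. SIK3, a kinase that keeps such deacetylases out of the nucleus, had 0.39, and the kinase MAPK14 had -0.28.

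The complexes that maintain the programme had 24 of 25 genes tested and 0 passed, with 9 positive and 15 negative values and a median of -0.098. All shLAMP5 libraries lay below both controls for 6 of the 24 and above both for 1, against 13.5% and 8.25% of all genes tested. The median was -0.057 without shLAMP5 2. WDR5, a subunit of MLL complexes, had the lowest log2 fold change (-0.46), and MLLT1, a reader of acetylated histones that is itself an MLL fusion partner, had -0.37. MLLT3, the gene fused to MLL in these cells, had 0.19, and CDK9, the elongation kinase, 0.16.

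Of 30 genes reported as targets of HOXA9, MEIS1 or MLL fusions, 21 were tested and 0 passed, with 14 positive values and a median of 0.092, which was 0.22 without shNT 1, -0.040 without shNT 2 and 0.034 without shLAMP5 4. LMO2, a bridging factor of blood progenitors, measured 72.8 and 77.0 TPM in shNT and 139, 77.4, 148 and 150.0 TPM in shLAMP5 1 to 4 (log2 fold change 0.72, limma unadjusted p 0.0386 and adjusted p 0.541). Only shLAMP5 2 was near the controls. ZEB2 had 0.34, MYC -0.43 and MYB -0.41, with MYC and MYB lowest in shLAMP5 2 and shLAMP5 3.

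Most genes of myeloid differentiation had positive values that did not pass the test. Of 20 such genes 19 were tested, 17 had positive values, the list's median being 0.78 (log2 fold change), and 0 passed, with 8 of the 19 at an unadjusted p under 0.05 (8.97% of all genes tested). All shLAMP5 libraries lay above both controls for 8 of the 19 (8.25% of all genes tested). For CYBB, LYZ, S100A8 and S100A9, picked after their values were seen, shLAMP5 2 was below both controls in unscaled TPM. The margin to the lower control was small for CYBB (1.98 against 2.03 TPM) and S100A9 (54.1 against 58.2 TPM). With the low scaling factor of shLAMP5 2 (0.8732), such margins may come from scaling. These 4 genes were not compared after median scaling. CSF3R, the granulocyte colony-stimulating factor receptor, had 1.09, TYROBP, an adaptor of myeloid receptors, 1.21, KLF4 -0.094 and IRF8, a factor of monocyte and dendritic lineages, -0.46. The list median lay between 0.66 and 1.10 with 1 library left out. The part of these genes in the values of the 9 members was not tested.

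**Figure D5:**
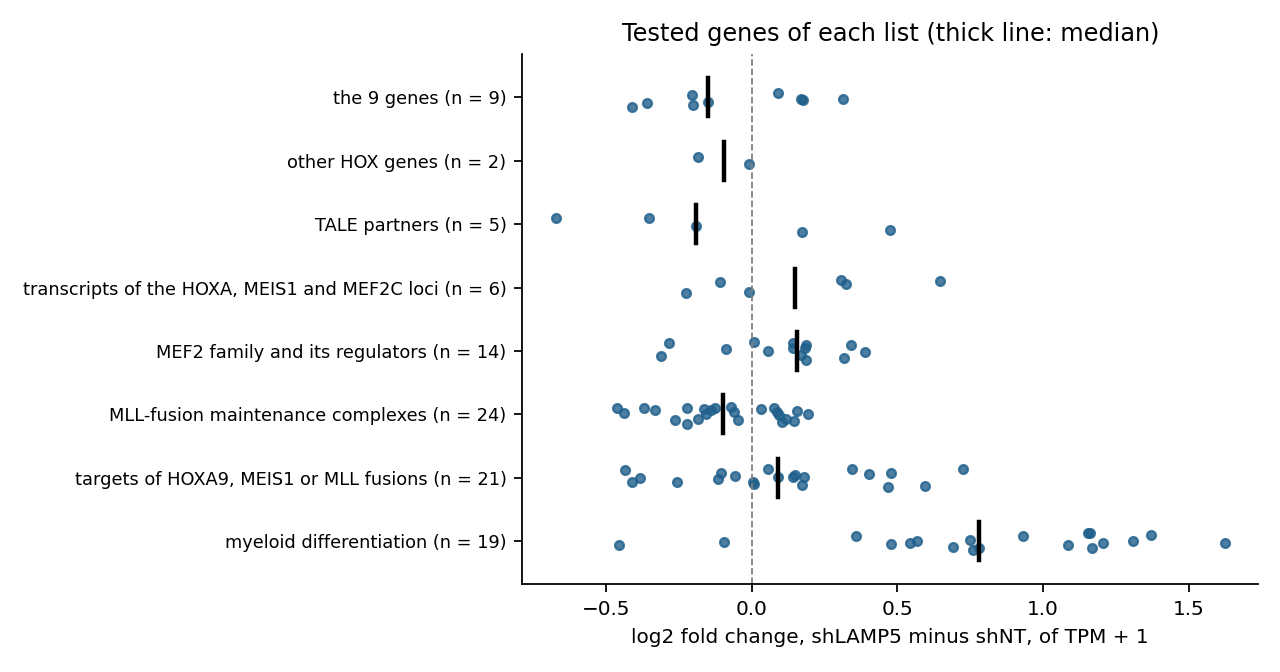
Log2 fold change (shLAMP5 minus shNT, of TPM + 1) of every tested gene of the 9-gene group and of 7 lists, with a thick line at each median. The 9 genes lie between -0.41 and 0.31 around a median of -0.15, and the myeloid differentiation genes have a median of 0.78.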

How the data were processed

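RNA of 6 MOLM-13 libraries (2 shNT, 4 shLAMP5) was sequenced from TruSeq libraries, per the labels' protocols. The authors deposited 1 table of 39771 Ensembl gene rows, read as TPM because its values are fractional and sum to between 897026 and 912565, since the table names no unit. Kallisto and hg19 were used, per the submitters' processing notes. For its version, transcript set and summing to genes: not given in the sources used here. As TPM holds no depth, no count test or counting interval was possible. Symbols were matched for 35558 rows.

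Groups and replicate numbers came from the titles. limma 3.58.1 (R 4.3.3) with a mean-variance trend was fitted on log2(TPM + 1) for the 13072 genes that reached 1 TPM in 2 or more libraries. Group was the sole factor, and p-values were adjusted over all genes by Benjamini-Hochberg with a threshold of 0.05. The script was tested on simulated data. An exact two-sided permutation test served the HOXA9 to MEIS1 ratio. The members, the 7 gene lists, the tests and the rule for named genes were chosen with earlier results of these data known. The rule named all members, LAMP5, every tested gene of the HOX, TALE and locus lists, the 2 genes of smallest p per direction from the other lists, and the 5 genes most like HOXA9 and MEIS1. The untested genes HOXA2, HOXA4, HOXB9, HOTTIP and PBX4 were named after their values were seen. Alternatives covered pseudocounts, filters, scaling, the trend, a replicate block and leaving out libraries. The transcripts HOXA10-HOXA9 and MIR196B and the genes HOXB7, MLLT6 and CCL3 were not analysed here, and 2 further genes of the lists are not reported here. Tables used pandas 2.3.3 under Python 3.11.15, and figures matplotlib 3.10.9.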

Additional observations from a re-analysis of the deposited data

Results flagged for a closer look

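MEF2C in the shLAMP5 libraries had 1 value far from the other 3: shLAMP5 3 measured 73.7 TPM against 47.1 to 49.4 TPM in the others, a gap of 0.915 of the whole range, above Dixon's 95% critical value for 4 samples. Chance alone gives such a gap in about 1 in 20 groups, and 9 genes were looked at. The flag is for unscaled TPM. After median scaling MEF2C was 44.5, 56.5, 70.5 and 46.0 in shLAMP5 1 to 4, so shLAMP5 3 stood less far apart. Dixon's test was not run on the scaled values.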

How the results depend on the processing

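With TPM from 6 libraries, read depth is unknown, and precision is limited by the 2 shNT libraries. No member passed under any of the alternatives run, and the lowest adjusted p of a member was 0.376 (HOXA9 without shLAMP5 2). Over all genes, 0 passed in the main test, 14 with no filter on low genes and 16 with the replicate block, in which shLAMP5 3 and 4 have no partner. Where 1 shNT library is left out, the other is assumed to vary like the shLAMP5 group. The cause was not tested. The replicate numbers pair nothing that the labels name. Deviations of shNT 1 correlated at -0.52, 0.474, 0.276 and -0.518 with those of shLAMP5 1 to 4. Those of shNT 2 gave the same sizes with opposite sign, as 2 libraries deviate from their mean in mirror image. The cause of this split was not tested. Of 132 member values under alternatives, 123 kept their sign. With the replicate block MEF2C was -0.060, HOXA9 0.082, PBX3 0.0055 and HOXA7 -0.42, against 0.092, 0.31, 0.18 and -0.15. With 1 library left out in turn it ranged from -0.058 to 0.22, HOXA5 from -0.063 to 0.40, HOXA7 from -0.41 to 0.11 and HOXA10 from -0.41 to 0.013. Leaving out shNT 1 and shLAMP5 2 together, chosen after seeing the data, gave HOXA5 -0.18, HOXA7 0.14 and HOXA10 0.054, and 6 of 9 members whose groups did not overlap (63.0% of all genes), against 2 with all libraries (21.8%). There HOXA3 was the 1 member at an unadjusted p under 0.05 (limma p 0.0483, adjusted p 0.617). Members without overlap numbered 5 without shNT 1 (43.8% of all genes), 5 without shNT 2 (35.5%) and 1 under median scaling (25.1%). The HOXA9 to MEIS1 difference was 0.37 to 0.70 with 1 library left out.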
